A study of Mus musculus with 27 samples.

Results

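Chromatin regulators were read in mouse cerebellar tumours driven by Hedgehog signalling. The genes were all those whose annotated symbol is Hdac with a number, Kdm with a number and letter (without Kdm5c, Kdm5d and Kdm6a), Kmt2 with a letter, Smarca to Smarce with a number or Cbx with a number, together with Ezh1, Ezh2, Eed, Suz12, Bmi1, Ring1, Rnf2, Dnmt1, Dnmt3a, Dnmt3b and Tet1 to Tet3. This rule gave 61 genes with 156 probe sets that name a single gene, out of 18194 such genes on the array. Of these, 60 had a probe set bright enough to be tested, among 13527 genes tested in all. Kdm4d was left out because it exceeded the median signal of the table on 1 array only.

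The series holds 27 Affymetrix arrays of cerebellar RNA. Tumours came from mice in which cre recombinase turned on SmoM2, a constitutively active Smoothened that transmits the Hedgehog signal, under Math1-cre (3 arrays), Tlx3-cre (3), Olig2-tva-cre (7) or hGFAP-cre (6), and from Ptc1+/- mice (2), which keep 1 working copy of the gene of the Hedgehog receptor Patched. Math1 (Atoh1) is expressed in precursors of granule neurons, whereas hGFAP-cre and Olig2-tva-cre act in wider sets of neural progenitors. The 6 non-tumour arrays held cerebellar tissue of mice with a cre driver and SmoM2 or of Ptc1+/- mice. Controls 1 and 2 came from Olig2-tva-cre:SmoM2 mice, control 3 from hGFAP-cre:SmoM2, controls 4 and 5 from Mxi1-cre:SmoM2 and control 6 from Ptc1+/- mice. None was wild type by its label. No control came from Math1-cre or Tlx3-cre mice, and Mxi1-cre is the driver of no tumour group. Ages, sexes and strains are not given in the sources used here. The labels speak of biological replicates without naming animals, so a p-value here reflects how these samples varied, which may in part be technical, and the number of arrays limits the precision.

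Post-translational marks on histones and methyl groups on DNA are placed, read and removed by a limited set of enzymes and complexes. Polycomb repressive complex 2 (PRC2) methylates lysine 27 of histone H3 through Ezh2 or Ezh1, and PRC1 binds that mark through a Cbx protein and ubiquitinates histone H2A. BAF complexes slide nucleosomes, and neural progenitors are known to exchange several of their subunits for neuronal ones as they leave the cell cycle. Several of the human counterparts, among them SMARCA4 and KMT2D, are recurrently mutated in medulloblastoma.

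Arrays were rescaled to a common brightness before log2 was taken, and a gene was called when the limma adjusted p, over all 13527 genes, was under 0.05. All tumour arrays were rich in markers of dividing cells, whose summed signal ran from 6159 to 20817 on tumour arrays and from 835 to 1463 on non-tumour arrays. All 11 of these markers were called higher, as were 8 of 8 granule precursor and tumour markers. The summed signal of 9 mature granule neuron markers was 3640 to 9489 on tumour and 22218 to 30785 on non-tumour arrays, with 8 called lower. For 6 Purkinje cell markers it was 262 to 2729 against 16330 to 22512, with all 6 lower and Slc1a6 at the floor of measurement on every Math1 and Ptc1+/- array. For 7 oligodendrocyte markers it was 370 to 5320 against 7928 to 13554, with all 7 lower and Mog at the floor on every Math1 array. Astrocyte and Bergmann glia markers summed to 4615 to 11737 against 10735 to 13498, with 7 of 8 lower and Gfap called higher by 2.24. Microglia and macrophage markers summed to 3722 to 11242 against 1220 to 1774 (10 of 10 higher), and 5 endothelial markers to 223 to 502 against 315 to 558 (2 lower). The part of this change in cell content in the differences below was not tested. In such bulk tissue, fewer cells of a type and less RNA per cell cannot be told apart. Some arrays stood apart. Brightness before rescaling was low on 7 tumour arrays (Olig2 3 to 7, hGFAP 4 and Ptc1+/- 2, with trimmed means under 85), and the log2 ratio of 3' to 5' control probe sets, a sign of RNA integrity, was 1.67 or more on 5 arrays (Olig2 3 and 4, hGFAP 4 and 6, control 1) and 0.90 or less on the rest.

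Across the 5 tumour groups, weighted equally, 37 of the 60 chromatin genes differed from non-tumour tissue, 24 higher and 13 lower. The share of all tested genes called in this comparison was 52.4% (26.8% higher and 25.6% lower), beside 61.7% of the chromatin genes (40.0% higher and 21.7% lower). These shares of all genes are also the background for the counts by class and by partner list below. The median log2 difference of the chromatin genes was 0.23, beside 0.02 over all genes. Ezh2 had the largest rise (3.49 on the log2 scale, 11.2-fold) and Cbx7 the largest fall (-2.21, 4.63-fold lower). The smallest adjusted p belonged to Smarce1 (limma, 2.84e-14). In 11 genes all 21 tumour arrays lay above all 6 non-tumour arrays (18.3%, background 8.14%): Smarcc1, Smarce1, Smarca5, Hdac2, Hdac9, Cbx2, Cbx5, Bmi1, Rnf2, Kdm1a and Kdm3a. In 3 genes, Cbx6, Cbx7 and Ezh1, they lay below every one (5.00%, background 9.68%). Without rescaling the arrays, the median of all genes moved from 0.02 to -0.34, and 11 of the 24 higher genes were no longer called (Cbx1, Cbx3, Dnmt3b, Eed, Hdac1, Kdm1b, Kdm2b, Kdm3a, Kdm4a, Smarca4 and Smarcb1). No lower gene lost its call in that setting, and no call changed direction in any setting tried. Of the 37 called genes, 24 had more than 1 probe set, and in 19 of these another probe set was called the same way. The exceptions were Cbx2, Dnmt3b, Hdac4, Kdm7a and Smarcb1, whose calls rest on the probe set used. A further 13 called genes, Ezh2 and Hdac9 among them, had 1 probe set kept, so their calls also rest on it alone.

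**Figure D1:**
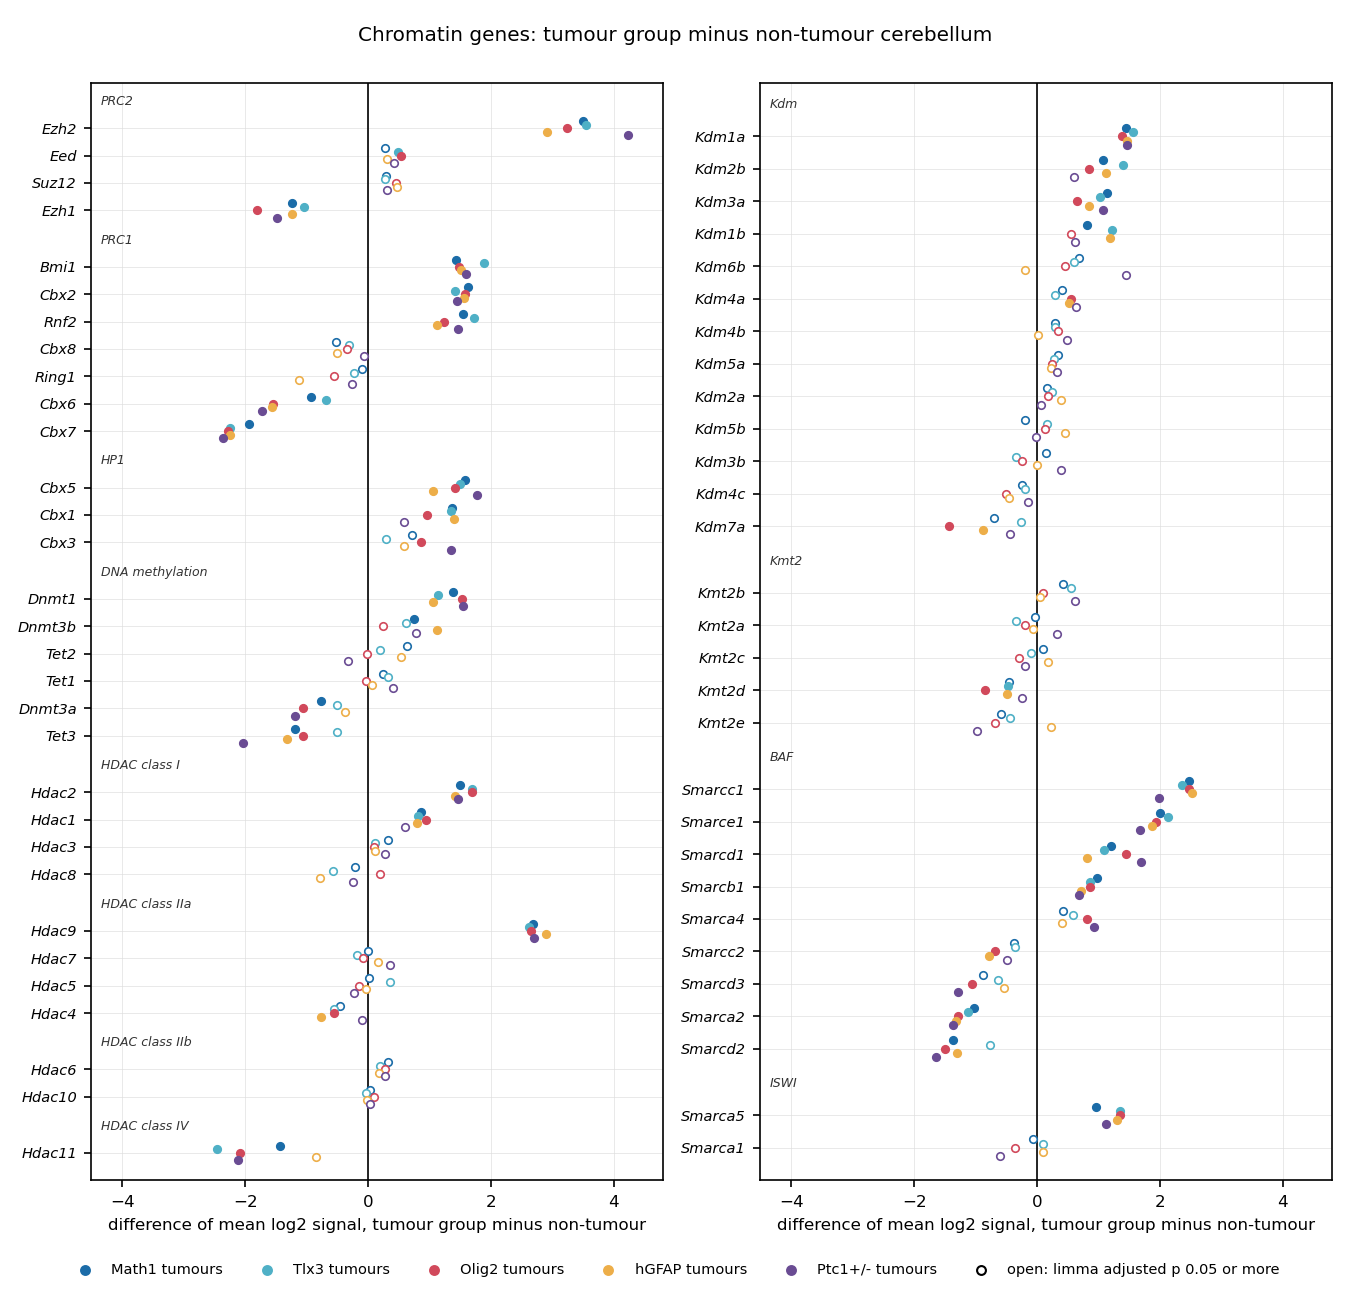
Difference of mean log2 signal between each tumour group and the 6 non-tumour arrays for the 60 chromatin genes, ordered by complex or enzyme class. Each point is 1 tumour group and filled points passed limma's adjusted p of 0.05; Ezh2 lies furthest to the right (2.91 to 4.23) and Cbx7 and Hdac11 furthest to the left.

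Taken separately, Math1 tumours gave 28 called chromatin genes, 20 higher and 8 lower, against a background of 37.4% of all genes (19.3% higher and 18.1% lower). Tlx3 tumours gave 26, 20 higher and 6 lower, against 40.3% (19.7% and 20.6%). Olig2 tumours gave 35, 22 higher and 13 lower, against 49.6% (24.7% and 25%). In hGFAP tumours 31 were called, 21 higher and 10 lower, against 41.7% (22.5% and 19.2%), and in Ptc1+/- tumours 26, 17 higher and 9 lower, against 36.3% (17.9% and 18.4%). The split depended on the scaling. Without rescaling, higher and lower calls numbered 11 and 1 in Math1, 18 and 2 in Tlx3, 7 and 22 in Olig2, 8 and 15 in hGFAP and 2 and 18 in Ptc1+/- tumours. Lower calls thus outnumbered higher ones in Olig2, hGFAP and Ptc1+/- tumours, the groups that hold the dim arrays. The shares of all genes called without rescaling are not given here, so these splits are no result about the chromatin genes. The lower calls in Math1 tumours went from 8 to 5 without Math1 1 and to 4 without Math1 2, and those in Tlx3 tumours from 6 to 3 without Tlx3 3. These comparisons share their 6 control arrays. In all, 19 genes were called in the same direction in the 5 groups (background 23.9%). Of these, 15 were higher (25% of the chromatin genes, beside 12.1% of all genes). The other 4 were lower (6.67% beside 11.7%), namely Cbx6, Cbx7, Ezh1 and Smarca2. No chromatin gene was called in opposite directions in different groups (background 0.0961%), and 23 were called in none (38.3%, background 36.3%).

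Promoter sequences were available for 48 of the 60 genes in RefSeq's table for build GRCm38.p6, each covering 250 bases before and 50 after a start site, on the strand of the gene. They are printed for the genes with the largest rise in PRC2, among DNA methyltransferases and in BAF, and for both genes with the largest fall. Capitals mark 2 motifs, each read on both strands: the E2F letters TTTCCCGC or TTTGGCGC, bound by the factors that switch on S-phase genes, and CCAAT, the letters of NF-Y. Ezh2 lies at chr6:47594981-47595280 (minus strand). Of 3 Dnmt1 starts, the one at chr9:20952574-20952873 (minus strand) is shown because it holds an E2F match. The others hold no E2F match: the start at chr9:20959839-20960138 has 5 CCAAT matches and the one at chr9:20952930-20953229 none. Smarcc1 is at chr9:110131774-110132073 (plus), Cbx7 at chr15:79932597-79932896 (minus) and Hdac11 at chr6:91156565-91156864 (plus).
Ezh2: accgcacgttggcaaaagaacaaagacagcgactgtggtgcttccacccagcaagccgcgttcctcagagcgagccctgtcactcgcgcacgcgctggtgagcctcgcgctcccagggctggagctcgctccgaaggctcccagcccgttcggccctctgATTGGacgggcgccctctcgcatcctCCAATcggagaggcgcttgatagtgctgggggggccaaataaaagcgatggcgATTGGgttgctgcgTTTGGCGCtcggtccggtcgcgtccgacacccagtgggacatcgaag
Dnmt1: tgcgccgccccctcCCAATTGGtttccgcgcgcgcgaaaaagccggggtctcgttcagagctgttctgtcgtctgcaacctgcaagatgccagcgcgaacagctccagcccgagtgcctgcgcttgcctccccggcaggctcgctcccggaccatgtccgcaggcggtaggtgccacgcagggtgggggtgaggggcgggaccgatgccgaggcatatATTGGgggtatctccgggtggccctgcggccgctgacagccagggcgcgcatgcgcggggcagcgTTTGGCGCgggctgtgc
Smarcc1: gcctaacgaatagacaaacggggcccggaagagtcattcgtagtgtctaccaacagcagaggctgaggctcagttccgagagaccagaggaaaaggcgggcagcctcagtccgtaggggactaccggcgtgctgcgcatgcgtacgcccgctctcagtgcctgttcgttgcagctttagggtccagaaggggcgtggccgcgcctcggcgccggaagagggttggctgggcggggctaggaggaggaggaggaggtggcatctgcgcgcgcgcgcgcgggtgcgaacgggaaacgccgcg
Cbx7: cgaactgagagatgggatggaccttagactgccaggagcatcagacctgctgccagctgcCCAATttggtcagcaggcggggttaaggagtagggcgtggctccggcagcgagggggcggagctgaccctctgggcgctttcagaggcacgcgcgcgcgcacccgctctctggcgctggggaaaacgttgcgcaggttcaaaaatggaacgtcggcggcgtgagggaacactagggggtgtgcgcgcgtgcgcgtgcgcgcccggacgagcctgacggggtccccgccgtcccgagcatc
Hdac11: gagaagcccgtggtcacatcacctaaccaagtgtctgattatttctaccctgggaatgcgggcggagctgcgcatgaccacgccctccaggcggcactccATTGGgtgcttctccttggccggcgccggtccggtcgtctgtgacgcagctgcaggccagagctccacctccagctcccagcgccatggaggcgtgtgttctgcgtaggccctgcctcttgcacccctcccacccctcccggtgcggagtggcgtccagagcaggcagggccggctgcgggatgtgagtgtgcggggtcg
The Ezh2 and Dnmt1 windows each held 1 E2F match and 3 CCAAT matches, of which 2 overlap in Dnmt1, the Cbx7 and Hdac11 windows 1 CCAAT match each, and the Smarcc1 window neither. Over all genes that rose, 4 of 31 promoters held the E2F letters (12.9%; Ezh2, Dnmt1, Cbx3 and Smarcd1), against 0 of 15 of those that fell, 1 of 18 of those not called (Suz12) and 1.56% of all 32851 promoters in the table. CCAAT was in 32.3% of promoters of risen, 26.7% of fallen and 33.3% of uncalled genes, and in 37.4% of all. The windows of chromatin genes were rich in CpG, with a median of 29 CpG in risen, 31 in fallen and 22 in uncalled genes, beside 7 over all promoters. Of the other letters searched, CACGTG (the E-box of Myc) was in 2 of 31 promoters of risen, 2 of 15 of fallen and 3 of 18 of uncalled genes, and in 7.15% of all. CTCGCGAGA (BANP) was in 1, 0 and 1 of these promoters and in 0.676% of all, and GACCACCCA (Gli) in none of them and in 0.253% of all. A match of letters is a description of the window and no evidence of binding.

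Within PRC2 the catalytic subunits moved apart: Ezh2 rose and Ezh1 fell in every tumour group, and of the core subunits Eed was called higher and Suz12 was not called on the probe set used. Ezh2 had log2 signals of 9.99, 10 and 9.85 in Math1 tumours, 10.04, 9.95 and 10.01 in Tlx3 and 11.06 and 10.29 in Ptc1+/-. In Olig2 tumours the lowest, median and highest values were 7.77, 10.03 and 10.41, in hGFAP tumours 7.13, 9.81 and 10.16, and in non-tumour tissue 6.09, 6.32 and 7.25. The groups overlapped at a single pair of arrays, hGFAP 4 (7.13) and control 6 (7.25), and 20 of 21 tumour arrays lay above all controls. On hGFAP 4 the summed signal of dividing-cell markers was 6159, the lowest of the tumour arrays, and on control 6 it was 1463, the highest of the controls. The next lowest tumour array for Ezh2, Olig2 6 (7.77), had a marker sum of 16434, the third highest of all. The difference was 3.49 (SE 0.33, limma adjusted p = 4.46e-10), from 2.91 in hGFAP to 4.23 in Ptc1+/- tumours.

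Ezh1, the paralog that predominates in non-dividing cells, was at 8.36 ± 0.28 (SD, n = 6) in non-tumour tissue, with a lowest value of 8.05, a median of 8.30 and a highest of 8.87. It was at 7.31, 7.03 and 7.02 in Math1, 7.42, 7.09 and 7.43 in Tlx3 and 6.82 and 6.94 in Ptc1+/- tumours, and its lowest, median and highest values were 5.64, 6.66 and 7.24 in Olig2 and 6.75, 7.18 and 7.51 in hGFAP tumours. Every tumour array was below every control, and the difference was -1.36 (SE 0.18, adjusted p = 2.73e-07). The other Ezh1 probe set kept also fell (-0.71, adjusted p = 0.00378). Eed, which binds the methylated histone tail, rose slightly (0.41, SE 0.13, adjusted p = 0.00988), a call that was lost without control 5 (adjusted p = 0.0501). Suz12, the scaffold of the complex, was not called on the probe set used (0.36, SE 0.20, adjusted p = 0.141), although 3 of its 5 other probe sets were called higher (0.44, 0.68 and 0.97). Among 8 tested PRC2 partners, 4 rose and 1 fell. Epop rose by 2.38, with 3 control arrays at the floor, the histone-binding protein Rbbp4 by 1.18, and Mtf2, which brings PRC2 to CpG islands, by 0.78. Phf1, a Polycomb-like protein related to Mtf2, fell by 0.97.

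**Figure D2:**
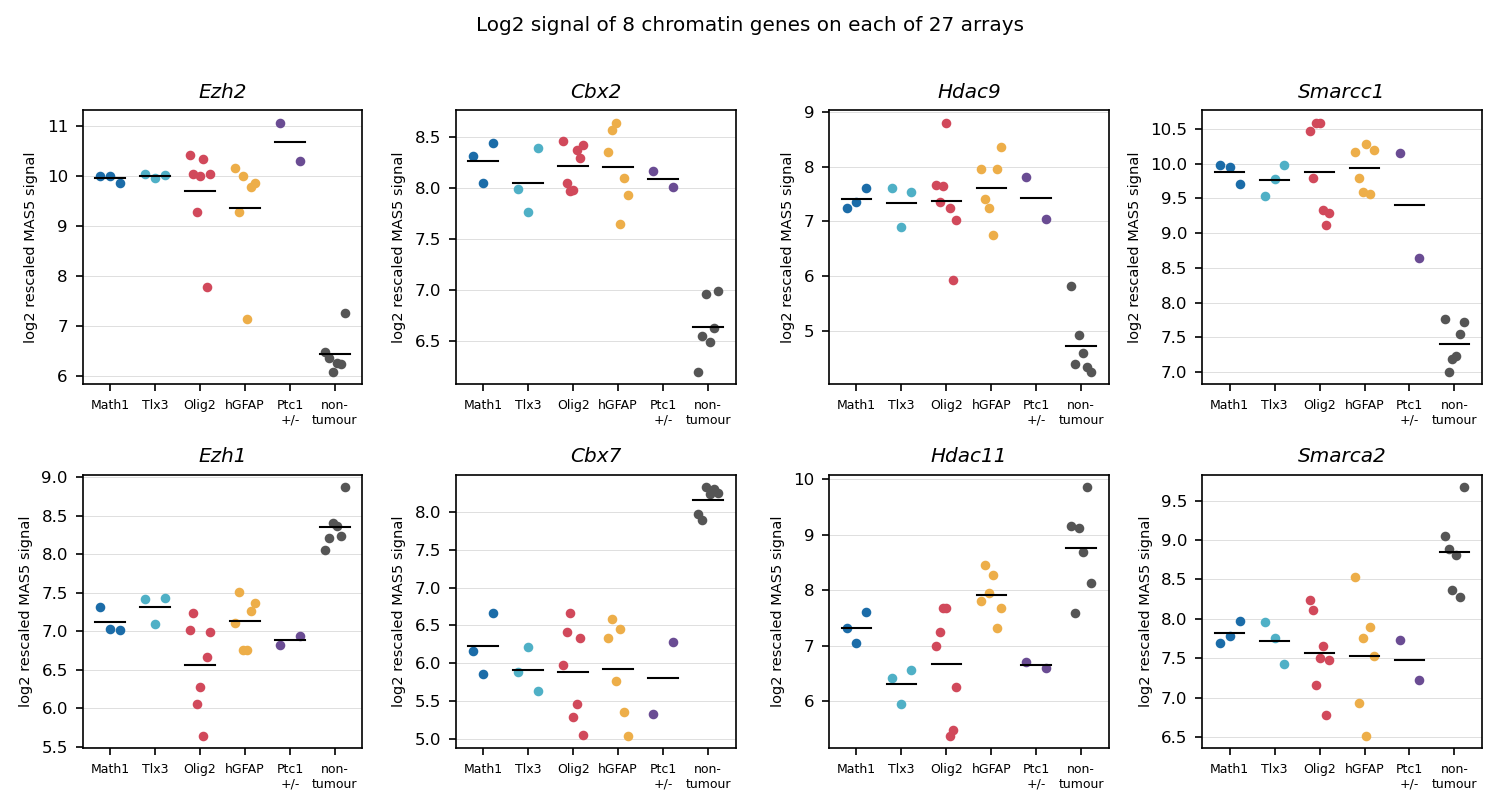
Log2 rescaled signal of 4 genes that rose (upper row) and 4 that fell (lower row) on each of the 27 arrays, by group; each point is an array and each bar the mean of its group. Ezh2, Smarcc1, Hdac9 and Cbx2 sit higher in every tumour group than in non-tumour tissue, Ezh2 with a single overlap between hGFAP 4 and control 6; Ezh1 and Cbx7 lie below every non-tumour array, while Hdac11 and Smarca2 overlap with it.

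PRC1 subunits moved in both directions. Bmi1, Cbx2 and Rnf2 rose, Cbx6 and Cbx7 fell, and Ring1 and Cbx8 were not called. Bmi1, which stimulates the ubiquitin ligase and is a known Hedgehog-responsive gene of granule precursors, was at 10.14, 10.08 and 10.13 in Math1, 10.51, 10.61 and 10.57 in Tlx3 and 10.62 and 9.96 in Ptc1+/- tumours. Its lowest, median and highest values were 10.01, 10.09 and 10.46 in Olig2, 9.84, 10.14 and 10.66 in hGFAP and 8.37, 8.62 and 9.21 in non-tumour arrays. There was no overlap, and the difference was 1.58 (SE 0.13, adjusted p = 5.54e-11). Rnf2, the principal ligase, rose by 1.42 (SE 0.13), from 8.12 ± 0.18 (SD, n = 6) in non-tumour tissue. Cbx2, a reader with strong compacting activity, rose by 1.53 (SE 0.15), from 6.64 ± 0.30 (SD, n = 6). Neither overlapped between tumour and non-tumour arrays.

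Cbx7, the reader that in other tissues keeps stem cells undifferentiated, was at 6.16, 5.86 and 6.67 in Math1, 5.89, 6.22 and 5.64 in Tlx3 and 5.33 and 6.28 in Ptc1+/- tumours. The lowest, median and highest values were 5.05, 5.98 and 6.67 in Olig2 and 5.04, 6.05 and 6.59 in hGFAP tumours, and 7.89, 8.24 and 8.33 in non-tumour tissue. Here too no tumour array reached a control, and the fall was -2.21 (SE 0.23, adjusted p = 4.11e-09), between -1.93 and -2.36 in the separate groups. A further Cbx7 probe set fell (-1.79, 17 arrays at the floor), and the remaining one, of low signal, did not change detectably (0.22, adjusted p = 0.469). Cbx6 fell by 1.29 (SE 0.16, adjusted p = 5.27e-08) and is taken up again with the differences between tumour groups. Cbx8 had a difference of -0.35 (adjusted p = 0.263). Ring1, the ligase paralog of Rnf2, had -0.45 (SE 0.40, adjusted p = 0.36). Its lowest values were 3.50 on hGFAP 4 and 3.81 on Olig2 4, both dim arrays with a high 3' to 5' ratio, while the controls ran from 6.77 to 7.06. Among 12 tested PRC1 partners, 5 rose, led by Phc1 (1.57), Pcgf2 (0.78) and Scmh1 (0.66), and Phc3 fell (-0.63).

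The HP1 proteins, which bind methylated lysine 9 of histone H3 in heterochromatin, all rose. Cbx5 (HP1 alpha) was at 11.24, 11.21 and 10.49 in Math1, 10.70, 10.98 and 10.96 in Tlx3 and 11.45 and 10.90 in Ptc1+/- tumours, with a lowest, median and highest of 10.01, 10.99 and 11.27 in Olig2, 9.73, 10.52 and 10.94 in hGFAP and 9.16, 9.35 and 9.63 in non-tumour tissue. All tumour arrays were above the controls (difference 1.47, SE 0.18, adjusted p = 4.5e-08). Cbx1 (HP1 beta) rose by 1.13 (SE 0.24) and was not called in Ptc1+/- tumours (0.58). Cbx3 (HP1 gamma) rose by 0.76 (SE 0.22), with calls in Olig2 and Ptc1+/- tumours; it rests on a single probe set, since 4 more are annotated to several genes and were not used. Suv39h2, which writes the mark that HP1 reads, rose by 2.45, with 2 control arrays at the floor, and Setdb1 and Ehmt2, which act on the same residue, were also called higher.

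Among the enzymes of DNA methylation, the maintenance enzyme Dnmt1 rose, and Tet3, which oxidises methylcytosine, fell. Dnmt1 read 9.80, 10 and 9.87 in Math1, 9.62, 9.78 and 9.56 in Tlx3 and 10.03 and 10.08 in Ptc1+/- tumours. Its lowest, median and highest signals were 9.39, 10.05 and 10.50 in Olig2, 8.50, 9.74 and 10.04 in hGFAP and 8.29, 8.54 and 8.70 in non-tumour tissue. Only hGFAP 4 (8.50) lay within the range of the controls. The rise was 1.33 (SE 0.17, adjusted p = 1.59e-07), and 2 more Dnmt1 probe sets rose as well (1.36 and 1.97). Uhrf1, which guides Dnmt1 to newly replicated DNA, rose by 5.50 (adjusted p = 2.46e-14); 3 control arrays were at the floor, so the difference is understated. Of the 7 tested methylation readers and partners, 4 rose and none fell, the others being Mbd3 (1.07), Uhrf2 (1.03) and Zbtb33.

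Dnmt3b, a de novo methyltransferase, rose by 0.71 (SE 0.20, adjusted p = 0.00356), with calls in Math1 (0.75) and hGFAP (1.13) tumours, while its other probe set had a difference of 0.23 (adjusted p = 0.439). Dnmt3a, the de novo enzyme of postmitotic neurons, was at 8.55 ± 0.18 (SD, n = 6) in non-tumour tissue and fell by 0.78 (SE 0.19, adjusted p = 0.000874). It was at 7.75, 7.52 and 8.07 in Math1, 7.89, 7.79 and 8.42 in Tlx3 and 7.71 and 7.03 in Ptc1+/- tumours, with a lowest, median and highest of 6.76, 7.53 and 8.07 in Olig2, 7.22, 8.27 and 8.72 in hGFAP and 8.33, 8.49 and 8.84 in non-tumour tissue; 17 of 21 tumour arrays lay below every control. Its 5 probe sets did not move alike. A second one also fell (-0.91), differences of -0.53 and -0.47 were not called, and a dim one with 4 arrays at the floor was called higher (1.37, adjusted p = 0.000742). Averaged over its probe sets, Dnmt3a was no longer called. Tet3 was low throughout. It read 4.25, 4.08 and 4.55 in Math1, 4.89, 5.08 and 4.96 in Tlx3 and 3.51 and 3.37 in Ptc1+/- tumours, with a lowest, median and highest of 3.37, 4.55 and 5.48 in Olig2, 3.37, 4.27 and 4.73 in hGFAP and 3.87, 5.77 and 6.17 in non-tumour tissue. The ranges overlapped because control 6 was at 3.87, and 3 tumour arrays were at the floor of 3.37 (difference -1.22, SE 0.32, adjusted p = 0.00181). Tet1 (0.20, adjusted p = 0.278) and Tet2 (0.21, adjusted p = 0.49) were not called, although a Tet1 probe set with 7 arrays at the floor was called higher (0.98, adjusted p = 0.0427).

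Of 11 tested histone deacetylases, 3 rose, 2 fell and 6 were not called. Of the class I enzymes, Hdac2 and Hdac1, the catalytic pair of the Sin3, NuRD and CoREST corepressors, rose, while Hdac3 (0.19, adjusted p = 0.494) and Hdac8 (-0.32, adjusted p = 0.38) were not called. Hdac2 read 10.39, 10.32 and 10.88 in Math1, 11.01, 10.60 and 10.59 in Tlx3 and 10.68 and 10.35 in Ptc1+/- tumours; the lowest, median and highest were 10.46, 10.74 and 10.96 in Olig2, 10, 10.28 and 11.11 in hGFAP and 8.51, 9.13 and 9.39 in non-tumour tissue. No arrays overlapped (difference 1.55, SE 0.16, adjusted p = 2.26e-09). A second Hdac2 probe set rose by 1.91, and a further one had 0.11 (adjusted p = 0.591). Hdac1 rose by 0.80 (SE 0.17, adjusted p = 0.000224) and 20 of 21 tumour arrays exceeded the controls. Corepressor subunits moved with them, 9 of 14 higher and 3 lower. Rcor2, the CoREST subunit of progenitors, rose by 4.23 (SE 0.26), Sin3b by 2.30 and the NuRD ATPase Chd4 by 1.53, whereas Chd5, a neuronal counterpart of Chd4, fell by 1.13, Mta3 by 0.68 and Chd3 by 0.39.

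Class IIa enzymes shuttle between nucleus and cytoplasm and repress Mef2 factors. Hdac9 was the one that rose, by 2.71 (SE 0.28, adjusted p = 2.21e-09). It was at 7.24, 7.36 and 7.61 in Math1, 7.60, 6.89 and 7.54 in Tlx3 and 7.81 and 7.04 in Ptc1+/- tumours. In Olig2 tumours it ran from 5.93 through a median of 7.35 to 8.80, in hGFAP tumours from 6.75 through 7.68 to 8.35, and in non-tumour tissue from 4.26 through 4.50 to 5.82. The groups did not overlap, and the gain was alike in size in the 5 groups (2.62 to 2.89). Hdac4 fell by 0.49 (SE 0.19, adjusted p = 0.0287), from 6.69 to 7.02 on the non-tumour arrays. It read 6.31, 6.78 and 6.12 in Math1, 6.04, 6.48 and 6.40 in Tlx3 and 6.49 and 7.03 in Ptc1+/- tumours, and its lowest, median and highest signals were 5.70, 6.39 and 6.80 in Olig2 and 5.48, 6.02 and 6.88 in hGFAP tumours. A single tumour array, Ptc1+/- 2, lay above every control and 16 lay below. This call was lost without Ptc1+/- 1 or without control 2, 3 or 5 (adjusted p up to 0.0632). Hdac5 (-0.01) and Hdac7 (0.05), and of class IIb Hdac6 (0.25) and Hdac10 (0.02), were not called (adjusted p from 0.185 to 0.978).

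Hdac11, the single class IV enzyme, abundant in mature neurons and oligodendrocytes, fell by 1.78 (SE 0.30, adjusted p = 1.08e-05). Its signals were 7.32, 7.05 and 7.60 in Math1, 6.41, 5.94 and 6.56 in Tlx3 and 6.70 and 6.59 in Ptc1+/- tumours, and the lowest, median and highest values were 5.37, 7.00 and 7.68 in Olig2, 7.31, 7.87 and 8.45 in hGFAP and 7.59, 8.90 and 9.86 in non-tumour tissue. Tumour and control ranges overlapped, and 13 of 21 tumour arrays lay below every control. On the probe set used, the fall was called in 4 groups and not in hGFAP tumours (-0.85). The second Hdac11 probe set, of lower signal, fell by 3.00 over all tumours (limma adjusted p = 1.82e-09). Oligodendrocyte and mature neuron markers fell across the same arrays, as given above. Of the sirtuins, the other deacetylase family, 1 of 7 was called (Sirt3, -1.37), and of 9 acetyltransferases Kat2a rose (0.85) and its paralog Kat2b fell (-1.57).

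Of 13 tested histone demethylases, 5 rose and 1 fell. Kdm1a (LSD1), which acts in the CoREST complex on lysine 4 of histone H3, was the clearest. It read 9.99, 10.21 and 10.12 in Math1, 10.12, 10.20 and 10.35 in Tlx3 and 10.21 and 10.04 in Ptc1+/- tumours, and its lowest, median and highest values were 9.54, 9.96 and 10.71 in Olig2, 9.54, 10.20 and 10.55 in hGFAP and 8.53, 8.65 and 8.79 in non-tumour tissue. The groups were fully apart (difference 1.47, SE 0.15, adjusted p = 1.17e-09). Kdm3a, which demethylates lysine 9, rose by 0.95 (SE 0.14) without overlap. Kdm2b, which recruits a variant PRC1 to CpG islands, rose by 1.01 (SE 0.19), Kdm1b by 0.88 (SE 0.21) and Kdm4a by 0.48 (SE 0.17, adjusted p = 0.0202). The call of Kdm4a was lost without control 2 or 4 (adjusted p up to 0.116).

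Kdm7a, which removes repressive methyl groups, fell by 0.74 (SE 0.19, adjusted p = 0.00169). It was at 8.0, 8.39 and 8.49 in Math1, 9.04, 8.73 and 8.45 in Tlx3 and 8.49 and 8.62 in Ptc1+/- tumours; the lowest, median and highest were 6.97, 7.54 and 8.32 in Olig2, 6.98, 8.21 and 8.65 in hGFAP and 8.79, 8.95 and 9.29 in non-tumour tissue. Only Tlx3 1 (9.04) reached the controls. The other probe sets of Kdm7a had differences of -0.25 (adjusted p = 0.469) and -0.08 (adjusted p = 0.85). The probe sets of Kdm5a disagreed: the one used was not called (0.28, adjusted p = 0.222), a pair rose (0.71 and 0.65), a further set had 0.52 without a call and another fell (-0.49, adjusted p = 0.0367). On the set used, Kdm5a read 7.65, 7.82 and 7.69 in Math1, 8.03, 7.50 and 7.42 in Tlx3 and 8.35 and 7.07 in Ptc1+/- tumours, and its lowest, median and highest signals were 7.05, 7.71 and 8.03 in Olig2, 7.01, 7.52 and 8.47 in hGFAP and 7.14, 7.40 and 7.57 in non-tumour tissue. Tumour arrays lay on both sides of the controls, 12 above and 3 below. The remaining demethylases, Kdm2a, Kdm3b, Kdm4b, Kdm4c, Kdm5b and the lysine 27 demethylase Kdm6b, had differences from -0.31 to 0.60 and were not called; a dimmer Kdm6b probe set was called higher (0.69, adjusted p = 0.0138).

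The Kmt2 genes encode the large methyltransferases of lysine 4 of histone H3. Of 5, only Kmt2d was called, lower by 0.50 (SE 0.13, adjusted p = 0.00165). Kmt2d, which marks enhancers, read 8.06, 8.10 and 8.55 in Math1, 8.31, 7.94 and 8.36 in Tlx3 and 8.77 and 8.12 in Ptc1+/- tumours. Its lowest, median and highest signals were 7.68, 7.77 and 8.17 in Olig2, 7.74, 8.23 and 8.52 in hGFAP and 8.54, 8.69 and 8.84 in non-tumour tissue, with 19 of 21 tumour arrays below every control. Kmt2a and Kmt2c (-0.06 each), Kmt2b (0.35) and Kmt2e (-0.50) had adjusted p-values from 0.106 to 0.826. In contrast to the catalytic subunits, 5 of 7 tested core subunits and partners rose, led by Ash2l (1.19), Dpy30 (1.16) and Wdr5 (0.88), while Rbbp5 fell by 0.49. Of 17 other methyltransferases 9 rose and 2 fell. Kmt5a, the cell-cycle regulated enzyme of lysine 20 of histone H4, rose by 1.63, Setd7 fell by 1.66 and Setd1b by 0.71.

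All 9 BAF subunits among the chromatin genes were called, 5 higher (Smarcc1, Smarce1, Smarcd1, Smarcb1 and Smarca4) and 4 lower (Smarcd2, Smarca2, Smarcd3 and Smarcc2). The background was 52.4% of all tested genes called, 26.8% higher and 25.6% lower. Smarcc1 (BAF155), a scaffold subunit of progenitor complexes, read 9.98, 9.95 and 9.71 in Math1, 9.54, 9.78 and 9.98 in Tlx3 and 10.16 and 8.64 in Ptc1+/- tumours. The lowest, median and highest values were 9.12, 9.80 and 10.59 in Olig2, 9.56, 9.98 and 10.29 in hGFAP and 7.01, 7.39 and 7.76 in non-tumour tissue. No tumour array reached down to the controls (difference 2.36, SE 0.22, adjusted p = 2.13e-10). Smarce1 (BAF57), the DNA-binding subunit, rose by 1.92 (SE 0.11), from 7.75 ± 0.12 (SD, n = 6) in non-tumour tissue to group means between 9.42 and 9.88, also without overlap. Smarcd1 rose by 1.25 (SE 0.27), Smarcb1, the core subunit lost in rhabdoid tumours, by 0.82 (SE 0.16), and the ATPase Smarca4 (BRG1) by 0.63 (SE 0.20, adjusted p = 0.00876), with calls for Smarca4 in Olig2 and Ptc1+/- tumours.

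On the probe sets used, Smarcd2 had the largest fall of the 9 Smarc subunits. It was at 8.14, 8.44 and 8.99 in Math1, 9.36, 8.96 and 9.04 in Tlx3 and 8.95 and 7.53 in Ptc1+/- tumours, with a lowest, median and highest of 7.43, 8.30 and 9.17 in Olig2, 7.67, 8.79 and 9.15 in hGFAP and 9.14, 9.88 and 10.65 in non-tumour tissue. The lowest control was overlapped by 3 tumour arrays and undercut by 18, and the difference was -1.31 (SE 0.25, adjusted p = 5.03e-05). The other Smarcd2 probe sets had smaller differences, -0.52 (limma adjusted p = 0.00443) and -0.57 (adjusted p = 0.11, not called). Smarca2 (BRM), the alternative ATPase, fell by 1.22 (SE 0.23, adjusted p = 5.12e-05) and was called in all 5 groups, with 20 of 21 tumour arrays below every control. Its second probe set fell by 1.80. Smarcd3, a subunit of neuronal and muscle complexes, fell by 0.88 (SE 0.27, adjusted p = 0.00656). Smarcc2 (BAF170) fell by 0.53 (SE 0.23, adjusted p = 0.0481). That call was near the threshold and was lost in 17 of 27 fits that each left out 1 array, and with 3 other settings.

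Subunits outside the Smarc family also moved in both directions. Of 19 BAF partners 9 rose and 5 fell. Actl6a (BAF53a), the actin-like subunit of progenitors, rose by 1.83 (SE 0.21), Phf10 (BAF45a) by 1.34 and Ss18 by 1.32. Their neuronal counterparts fell: Dpf3 (BAF45c) by 1.68, with 3 tumour arrays at the floor, Actl6b (BAF53b) by 0.79 and Ss18l1 (CREST) by 0.52. Bcl7b fell by 0.91. The large Arid1a and Arid1b subunits and Dpf2 were not called. Of the ISWI remodellers, Smarca5 (SNF2H) rose in every group and Smarca1 (SNF2L) did not change detectably (-0.17, adjusted p = 0.693). Smarca5 read 8.96, 9.39 and 9.42 in Math1, 9.82, 9.71 and 9.38 in Tlx3 and 9.50 and 9.34 in Ptc1+/- tumours, with 9.27, 9.57 and 9.98 as lowest, median and highest in Olig2, 9.28, 9.45 and 10.03 in hGFAP and 8.04, 8.26 and 8.64 in non-tumour tissue. The tumour arrays were all above the controls (difference 1.22, SE 0.13, adjusted p = 8.53e-09). Baz1a (ACF1), its partner in the ACF complex, rose by 3.14 and Cecr2 by 2.23, while 8 of 11 ISWI and Chd partners were not called. Over all lists, 111 partner genes were tested, of which 48 rose, 16 fell and 47 were not called. Of all tested genes, 26.8% were called higher and 25.6% lower in the same comparison.

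**Figure D3:**
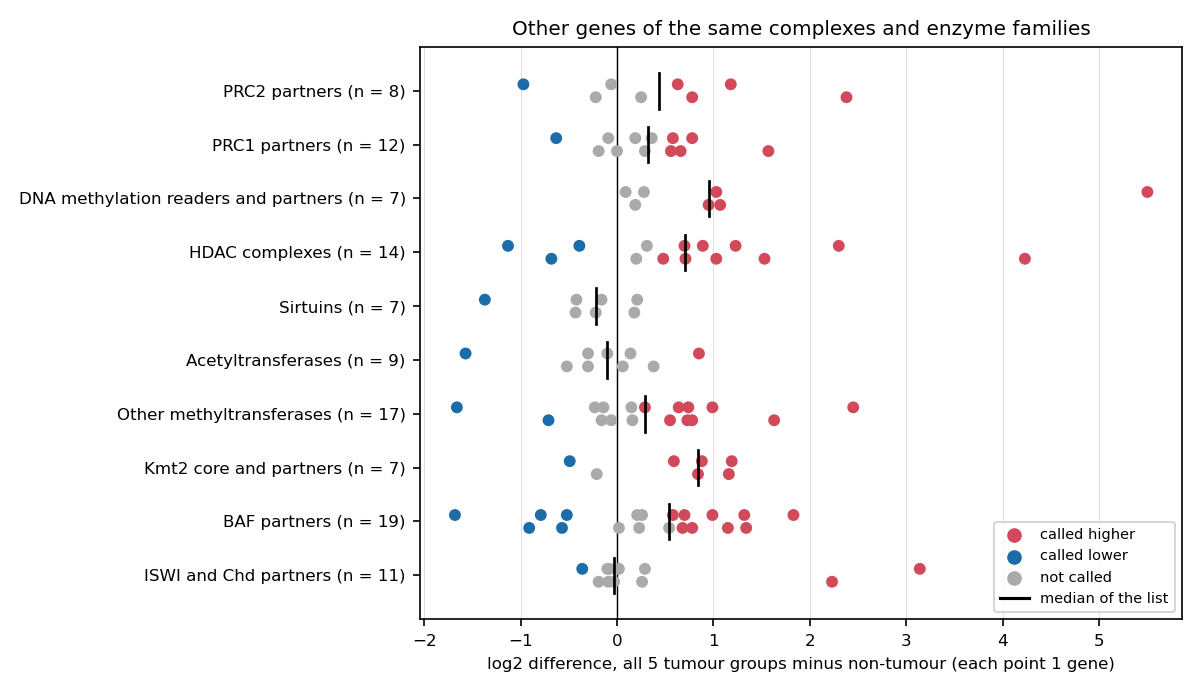
Log2 difference between the 5 tumour groups and non-tumour tissue for 111 genes that act with the chromatin genes, by list, coloured by the limma call, with a bar at the median of each list. DNA methylation readers, HDAC complexes, Kmt2 core subunits and BAF partners have medians between 0.54 and 0.95, sirtuins and acetyltransferases lie near or below 0 (-0.22 and -0.10), and Uhrf1 stands furthest out at 5.50.

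Ratios between paralogs or other related genes on the same array do not change when the array is multiplied by a constant, as in the rescaling used. Exceptions are values raised to the floor, and quantile normalization can change such ratios. The ratios show how far members of a pair moved apart. They are changes of a ratio of signals and not of protein or transcript numbers. Most pairs join a gene called higher above with one called lower, so their ratios restate those differences and add no support. The ratios were not tested, and no share over other gene pairs stands beside the counts of arrays. For Smarcc1/Smarcc2 the parts were 2.36 and -0.53. The Ezh2/Ezh1 log2 ratio was -1.91 ± 0.29 (SD, n = 6) in non-tumour tissue, from -2.32 to -1.58, and 0.38 to 4.70 on tumour arrays, a change of 4.85 (28.8-fold). All 21 tumour arrays lay above every control, hGFAP 4 included at 0.38. Cbx2/Cbx7 changed by 3.74, from -1.53 ± 0.23 (SD, n = 6), and Hdac2/Hdac11 by 3.34. Within BAF, Smarcc1/Smarcc2 changed by 2.90, Actl6a/Actl6b by 2.62 and Ss18/Ss18l1 by 1.85, all with 21 of 21 tumour arrays above the controls. Phf10/Dpf3 changed by 3.02, Smarcd1/Smarcd3 by 2.13 and Smarca4/Smarca2 by 1.85, each with 20 of 21. Dnmt1/Dnmt3a changed by 2.11 (21 of 21), Smarca5/Smarca1 by 1.39 (16 of 21) and Hdac1/Hdac5 by 0.81 (19 of 21). Tet1/Tet2 had a change of -0.01, with 5 tumour arrays above and 4 below all controls.

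**Figure D4:**
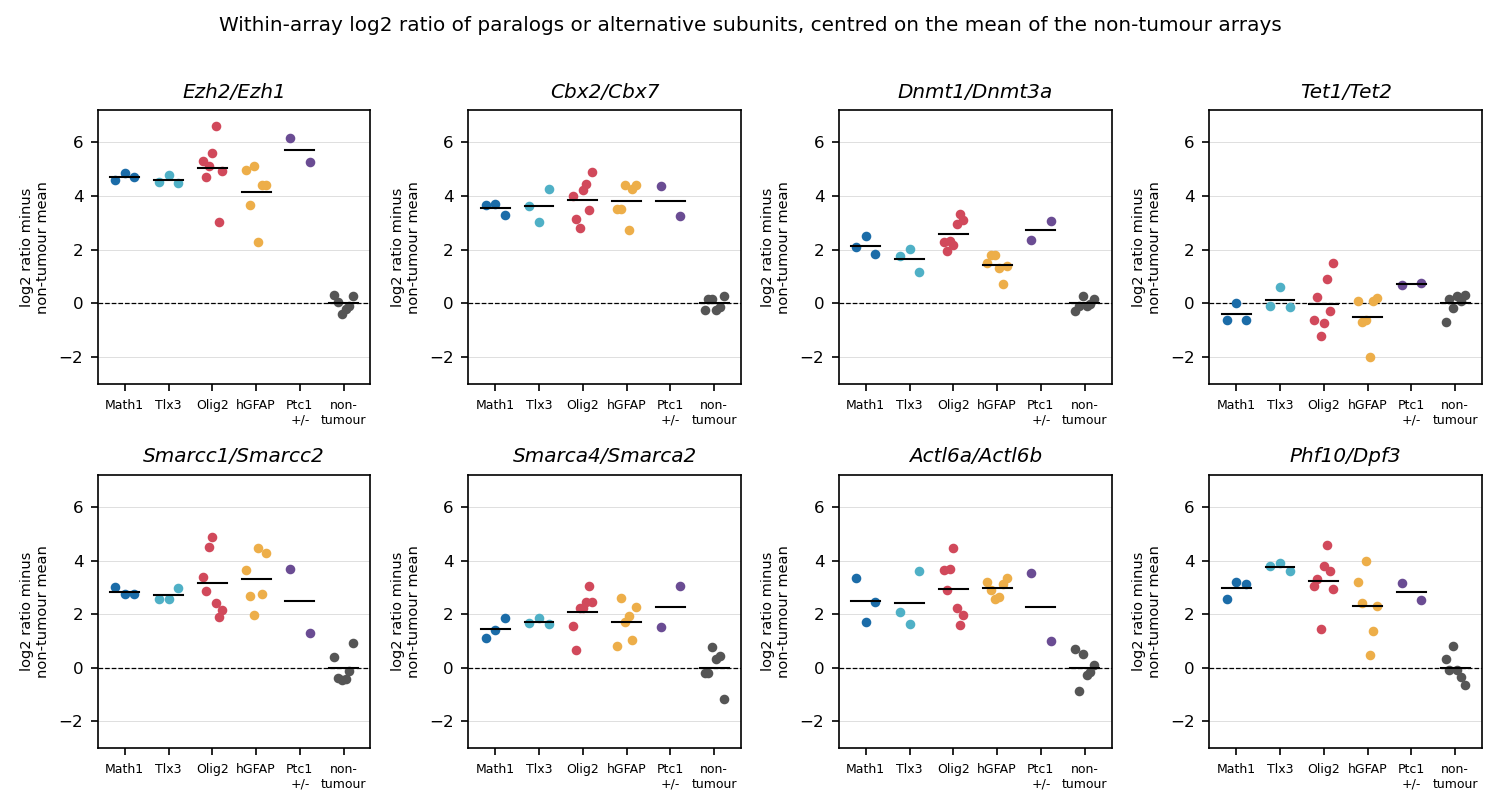
Log2 ratio of 8 pairs on each array after subtracting the mean of the 6 non-tumour arrays; points are arrays and bars group means. Ezh2/Ezh1, Cbx2/Cbx7, Dnmt1/Dnmt3a, Smarcc1/Smarcc2 and Actl6a/Actl6b are above all non-tumour arrays on every tumour array, Smarca4/Smarca2 and Phf10/Dpf3 on 20 of 21, and Tet1/Tet2 scatters around 0.

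The series title concerns granule neuron precursor identity in these tumours. When tumours of the widely acting drivers, hGFAP and Olig2, were compared with those of Math1 and Tlx3, 1 chromatin gene was called, Cbx6, of 35 among all genes (background 0.259%), and 5 had an unadjusted p under 0.05 (8.33%, background 15.5%). Cbx6 was at 8.59, 8.74 and 8.79 in Math1 and 8.74, 9.29 and 8.85 in Tlx3 tumours, and its lowest, median and highest signals were 7.63, 8.07 and 8.57 in Olig2 and 7.62, 7.96 and 8.72 in hGFAP tumours. It read 7.74 and 8.11 in Ptc1+/- tumours and 9.34, 9.57 and 9.99 in non-tumour tissue. The hGFAP and Olig2 arrays were lower with a single overlap, hGFAP 3 at 8.72, and the difference was -0.75 (limma adjusted p = 0.0465). The second Cbx6 probe set did not show it: its means were 8.12 in Math1, 8.37 in Tlx3, 7.96 in Olig2 and 8.17 in hGFAP tumours, a difference of -0.18 (adjusted p = 0.621 in a limma fit of all probe sets, in which the set used had 0.0636). The call was made in 4 of 14 settings and in 7 of 27 fits that each left out 1 array, with adjusted p-values from 0.00562 to 0.529 over the settings and from 0.0316 to 0.179 without 1 array. Both Cbx6 probe sets were lower than non-tumour tissue in all tumours together (-1.29 and -1.36).

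Among the 4 SmoM2 groups, limma's F test called 0 chromatin genes (background 0.946%), and 8 had an unadjusted p under 0.05 (13.3%, background 21.1%). The smallest adjusted p-values were 0.0633 for Cbx6, 0.0721 for Kdm7a and 0.0859 for Hdac11. Kdm7a had means of 8.74 in Tlx3, 8.29 in Math1, 8.12 in hGFAP and 7.56 in Olig2 tumours, and Hdac11 of 7.91 in hGFAP, 7.32 in Math1, 6.67 in Olig2 and 6.30 in Tlx3 tumours. On the probe set used, Hdac11 ran from 7.31 to 8.45 on hGFAP arrays and from 5.94 to 6.56 on Tlx3 arrays. These are the groups of highest and lowest mean, picked after the means were seen, so their separation is not a test. In the limma fit of all probe sets, the F test gave the second Hdac11 probe set an adjusted p of 0.444. The set used had 0.106 there. The range of the 4 group means had a median of 0.44 over the chromatin genes and 0.57 over all genes, and exceeded 1 in 3 genes, Hdac11 (1.61), Kdm7a (1.18) and Ring1 (1.03). Ptc1+/- tumours came from mice that keep 1 working copy of the receptor gene, and their label names no SmoM2. They differed from the SmoM2 groups in 0 chromatin genes (limma, background 0.547%), with 3 at an unadjusted p under 0.05 (5.00%, background 11.7%). These were Cbx6 (-0.54, adjusted p = 0.395), Cbx3 (0.74, adjusted p = 0.407) and Tet3 (-1.02, adjusted p = 0.425). Differences of similar size with 2 Ptc1+/- arrays were 1.05 for Kdm6b (adjusted p = 0.461) and 0.93 for Ezh2 (adjusted p = 0.494), neither called.

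**Figure D5:**
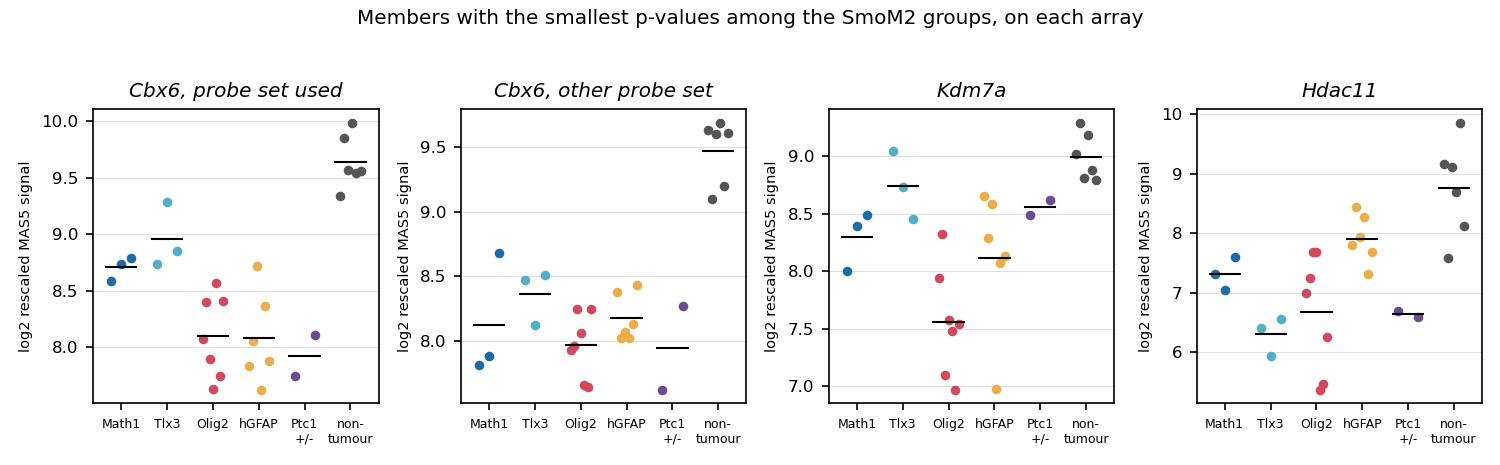
Log2 rescaled signal on each array of Cbx6 (both probe sets), Kdm7a and Hdac11, the genes that came closest to a call in the F test; bars are group means. The probe set of Cbx6 used here is higher in Math1 and Tlx3 than in Olig2 and hGFAP tumours with an overlap at 8.72, the other is not separated, Kdm7a is lowest in Olig2 tumours (mean 7.56) and Hdac11 is lowest in Tlx3 tumours (mean 6.30).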

How the data were processed

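The authors deposited linear signal intensity values of 45101 probe sets on 27 arrays; the submitters' processing notes name MAS5 as the method; per the labels' protocols, 5 ug of Trizol and RNeasy purified total RNA was made into biotinylated cRNA. The MAS5 version and scaling target are not given in the sources used here. Trimmed means (2%) ran from 42.58 to 205.96, so arrays were rescaled to 123.61, signals raised to a floor at the 20th percentile (10.3, log2 3.37) and log2 taken. Probe sets above the table's median (45.6) on at least 3 arrays were kept (30107), and the brightest one-gene probe set stood for each of 13527 genes. Low values can be background, since detection calls were not used here.

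The comparisons were fitted with limma 3.58.1 in R 4.3.3 on 6 group means, with trended robust moderation, two-sided tests (F among SmoM2 groups one-sided by construction) and Benjamini-Hochberg adjustment over all genes (call threshold 0.05). The fit was tested on simulated data. Every gene matching the rule is accounted for by role; given array by array are, per role, the called genes with the largest rise and fall, genes called between tumour groups, and genes whose probe sets were called in opposite directions. Partner genes are named as the highest and lowest called of each list, with others chosen after their values were seen. Genes and lists were chosen with earlier results of these data known. Alternatives changed the scaling, floor, filter, probe set, moderation, weights, covariates and arrays. Single probe sets were tested in a fit of all kept probe sets, so their adjusted p differs slightly from that of the gene. Replicate numbers were not used to pair arrays.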

Additional observations from a re-analysis of the deposited data

Results flagged for a closer look

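An array stood far from the rest of its group in 11 of 180 sets of values tested (each chromatin gene in the Olig2, hGFAP and non-tumour groups), and chance flags about 1 in 20. Of these, 5 fell on dim arrays, and 4 of these 5 were on arrays that also had a high 3' to 5' ratio. The part of brightness and of this ratio was not tested.

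Array hGFAP 4 was low for Ezh2 (7.13, next 9.27), Dnmt3b (6.43, next 7.08) and Kdm7a (6.98, next 8.07). It is dim, has a 3' to 5' log2 ratio of 1.88 and has the lowest dividing-cell marker sum of the tumour arrays (6159). In Olig2 tumours, replicate 6 was low for Ezh2 (7.77, next 9.28), replicate 2 for Kdm4a (6.50, next 7.32) and replicate 4 for Ring1 (3.81, next 6.39).

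Control 6, the non-tumour sample from Ptc1+/- mice, was high for Ezh2 (7.25, next 6.48) and Dnmt3b (6.77, next 6.02) and low for Hdac3 (8.25, next 8.80) and Smarcc2 (9.48, next 10.05). Its dividing-cell marker sum was the highest of the controls (1463, the others 835 to 1004). Control 2 was high for Hdac10 (6.79, next 6.55).

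Cbx6 was called lower in hGFAP and Olig2 than in Math1 and Tlx3 tumours on the probe set used (-0.75, limma adjusted p = 0.0465). The call was made in 4 of 14 settings and was lost in most fits without 1 array. In the limma fit of all probe sets neither Cbx6 set was called (adjusted p = 0.0636 and 0.621).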

How the results depend on the processing

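Of the 37 genes called in all tumours, 23 kept the call in the 13 other settings and in each of 27 fits without 1 array, 14 lost it at least once, and none reversed. Of the 14, 4 lost it in a setting other than no rescaling (Dnmt3a, Hdac4, Kdm4a and Smarcc2). The counts of called genes without 1 array ran from 34 to 37 in all tumours, 21 to 29 in Math1, 22 to 26 in Tlx3, 32 to 36 in Olig2, 29 to 33 in hGFAP and 21 to 27 in Ptc1+/- tumours, 0 to 0 for Ptc1+/- against SmoM2, 0 to 1 for Olig2 with hGFAP against Tlx3 with Math1, and 0 to 2 for the F test. Without rescaling the arrays, Math1 tumours gave 12 called genes (11 higher, 1 lower), and the split of higher against lower was 13 to 13 in all tumours, 7 to 22 in Olig2, 8 to 15 in hGFAP and 2 to 18 in Ptc1+/- tumours. In the comparison of Olig2 with hGFAP against Tlx3 with Math1 tumours the count was 46 without rescaling and 3 with array weights. It was 0 with quantile normalization, no filter, plain moderation, the groups compared alone or a replicate block. With the 3' to 5' ratio or brightness as a covariate, and without the dim or the high-ratio arrays, it was also 0. Counts without rescaling stand here without the share of all genes called in that setting. They are therefore no result about the chromatin genes. No Math1 or Tlx3 array was dim, whereas Olig2 and hGFAP arrays were among the dim ones. The F test gave 6 genes without rescaling, 1 with the mean of probe sets (Kdm7a), 5 with array weights and 3 without the high-ratio arrays (Hdac11, Kdm7a and Kmt2e); without Olig2 2, 3 or 4 it gave 2, Cbx6 with Kdm7a or Hdac11. Without the dim arrays, 40 genes were called in all tumours, and 39 without the high-ratio arrays. The replicate block left 37 genes called in all tumours. For arrays of the same number in different groups, correlations of deviations ran from -0.34 to 0.28 over 49 pairs. Their median was 0.03, beside 0 for different numbers, and 19 pairs exceeded 0.1. Such correlations cannot settle whether the numbers pair the samples. Except as given, the cause of these changes was not tested.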
